A study of Sus scrofa with 2 samples.

Results

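CXCL8, CXCL2 and CSF3 encode secreted proteins that draw neutrophils into tissue or raise their number. All 3 were chosen by name from the 31908 genes that both count matrices list, and each name occurs on 1 row. CXCL8, also called interleukin-8, and CXCL2 are chemokines of the ELR-positive CXC family, which bind to vessel walls and matrix and guide neutrophils through the receptors CXCR1 and CXCR2. CSF3, also called G-CSF, is the growth factor that releases neutrophils from the bone marrow and prolongs their life through the receptor CSF3R. In skin these genes are known to be switched on within hours of injury or of contact with interleukin-1, TNF or interleukin-17, through NF-kB and AP-1, and their mRNAs are short-lived because decay proteins such as ZFP36 bind AU-rich elements in them.

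The data are 10x Genomics 3′ single-cell libraries of dissociated pig skin, 1 from cells labelled fresh and untreated and 1 from cells labelled frozen, called cryopreserved here. Skin from the back of male farm pigs was digested with a whole-skin enzyme kit, about 8000 cells entered each library, and the freezing medium was 90% FBS with 10% DMSO. The extraction text is the same for both samples and describes freezing, so the fresh sample rests on its title and treatment label. Whether 1 animal gave both samples is not stated in the labels. Each transcript molecule carries a unique molecular identifier (UMI), and levels are given as CPM, the UMIs of a gene scaled to a common total of UMIs, either of a whole library or of the cells of a class.

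Within the limits of the study's methods, 2775 fresh and 4223 cryopreserved cells were kept, with a median of 11017 and 7945 UMIs per cell. The libraries shared 6 cell barcodes before these limits and 5 among the kept cells. Clusters were made with the 3 genes taken out and named from marker genes, so names end in "-like" and may differ from those of the study. No cluster took the name of neutrophils. Of 10 neutrophil markers 6 were listed. In the fresh and cryopreserved library MPO had 0 and 1 UMIs, MMP8 2 and 4, LTF 7 and 10, S100A8 13 and 12, and CSF3R 15 and 32. S100A12 had more, 83 UMIs in 18 cells and 533 in 43 cells, of which 1 cell held 53.3%. When the libraries were clustered without integration, S100A12 was among the leading genes of a basal keratinocyte-like cluster. With 1 library per group there is no spread between samples, no test was made, and every interval (not the limits given for a count of 0) is an exact 95% interval that covers counting error only.

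The sequences just before the chemokine genes CXCL8 and CXCL2 can be compared by their letters only. The 200 bases before the RefSeq transcript start (Sscrofa11.1, 5′ to 3′ on the strand of the gene) are printed with matches to the searched motifs in capitals, namely an NF-kB consensus, the AP-1 letters TGANTCA, the C/EBP letters TTGCNNAA, the TATA letters TATAAA, and the 9 bases that the overlapping NF-kB matches of CXCL2 have in common.
CXCL8, chr8:69932446-69932645, plus strand: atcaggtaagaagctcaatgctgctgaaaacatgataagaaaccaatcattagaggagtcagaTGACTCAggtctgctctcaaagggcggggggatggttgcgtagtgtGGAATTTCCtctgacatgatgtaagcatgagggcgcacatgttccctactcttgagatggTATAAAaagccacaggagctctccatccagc
CXCL2, chr8:70157053-70157252, plus strand: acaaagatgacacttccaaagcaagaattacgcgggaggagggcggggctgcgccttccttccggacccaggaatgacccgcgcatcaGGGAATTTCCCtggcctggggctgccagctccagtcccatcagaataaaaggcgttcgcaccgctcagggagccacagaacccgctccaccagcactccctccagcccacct

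The CXCL8 window held 1 AP-1 match at bases -137 to -131 and 1 TATA match at -31 to -26 from the transcript start. The CXCL2 window held 2 overlapping NF-kB matches at -112 to -102, which read the same stretch on opposite strands. Their common bases GGAATTTCC also lay in the CXCL8 window at -91 to -83, without a match to the full consensus there. Neither window held the C/EBP letters. Among 19556 windows of this length before RefSeq genes, 11.4% held the NF-kB consensus, 4.21% the AP-1 letters, 6.37% the C/EBP letters, 4.97% the TATA letters and 0.307% the common bases, which were picked after the windows had been read. TATA was searched on the strand of the gene and the others on both strands. A match describes letters and shows no binding.

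CXCL8 (ENSSSCG00000008953) lies at chr8:69932646-69935861 on the plus strand and has 4 exons. CXCL2 (ENSSSCG00000008959) follows 221 kb further on the same strand, at chr8:70157253-70159145, also with 4 exons. CSF3 (ENSSSCG00000017488) lies on another chromosome, at chr12:22333445-22335949 on the minus strand, with 5 exons. Between CXCL8 and CXCL2, at chr8:70054796-70057033, RefSeq annotates a relative of CXCL2 described as growth-regulated protein homolog gamma-like. Its transcript is 75.2% identical to that of CXCL2 over the aligned bases, and 67.9% over the last exon, where the longest identical run is 25 bases. How the authors' counting divided reads between these relatives is not given in the sources used here, so CXCL2 counts carry that uncertainty.

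CXCL2 was the most widely detected of the genes. It had 67418 fresh and 102511 cryopreserved UMIs, found in 57.5% of fresh cells (1595 of 2775, interval 55.6 to 59.3%) and 58.8% of cryopreserved cells (2482 of 4223, interval 57.3 to 60.3%). CXCL8 had 6688 and 7711 UMIs in 8.29% of fresh cells (230 cells, interval 7.29 to 9.38%) and 8.31% of cryopreserved cells (351 cells, interval 7.50 to 9.19%). CSF3 had 1046 and 1113 UMIs in 3.03% of fresh cells (84 cells, interval 2.42 to 3.73%) and 3.13% of cryopreserved cells (132 cells, interval 2.62 to 3.70%). Thinned to 2000 UMIs per cell, which left out 76 fresh and 200 cryopreserved cells, these shares were 42.1% and 45.9% for CXCL2, 5.74% and 6.09% for CXCL8, and 1.70% and 1.62% for CSF3.

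Each gene had a different leading class in both libraries. Most UMIs of CXCL8 lay in Langerhans or other dendritic-like cells and most of CSF3 in blood endothelial-like cells. For CXCL2 fibroblast-like cells held the largest share, while smooth muscle or pericyte-like cells held 24.0% and 19.6% and blood endothelial-like cells 16.9% and 13.1%. The leading class held 73.2% and 68.3% of the CXCL8 UMIs, 42.9% and 50.3% of the CXCL2 UMIs, and 88.5% and 78.2% of the CSF3 UMIs in the fresh and cryopreserved library. A class that held at least 50% of the UMIs was found for 2 of the 3 genes in the fresh library and for 3 in the cryopreserved library, although the CXCL2 share there (interval 49.96 to 50.6%) spanned 50% and was 49.8% without the highest Scrublet scores. The background over all genes with at least 200 UMIs was 38.9% of 9942 genes and 30.3% of 10300 genes. A class with many cells can take many UMIs at a modest level, and the CPM below set this aside.

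**Figure D1:**
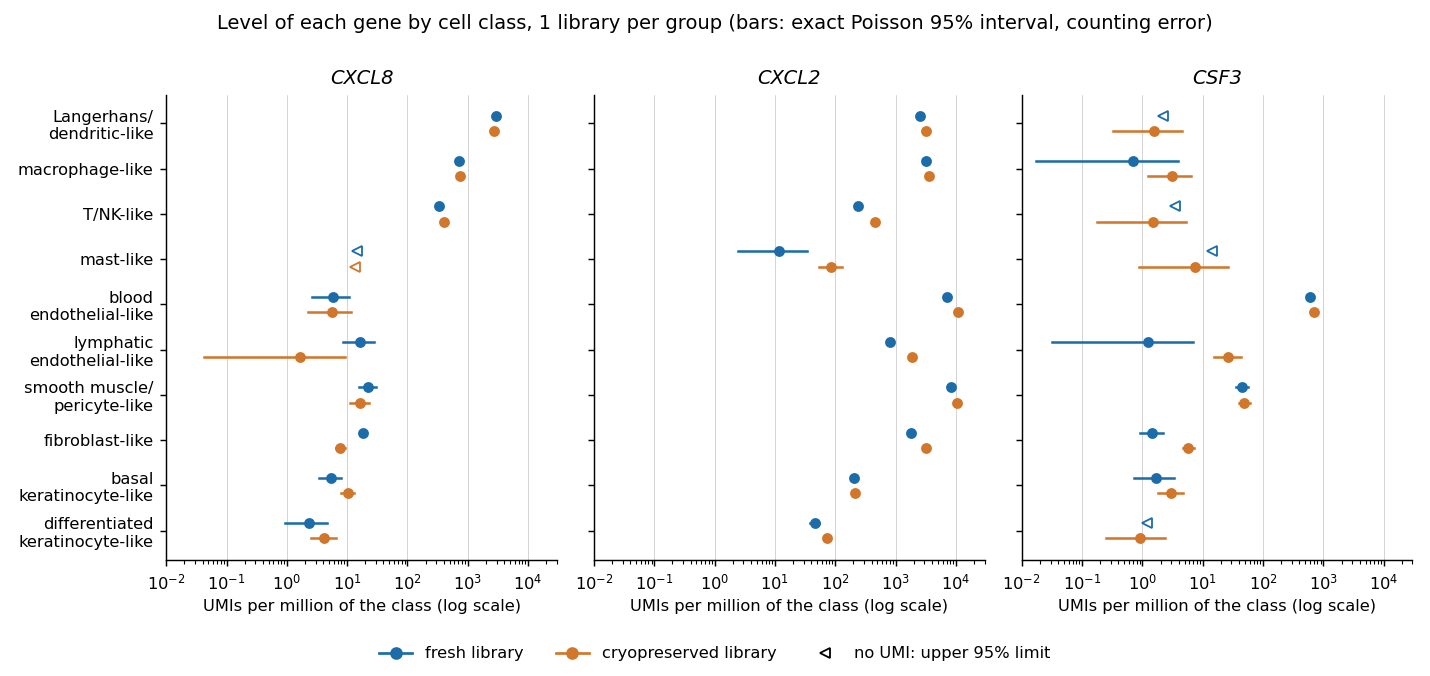
CPM of CXCL8, CXCL2 and CSF3 (log axis) in 10 cell classes of the fresh (blue) and cryopreserved (orange) library; points are the class levels, bars exact Poisson 95% intervals, open triangles the upper limit where a class had no UMI. CXCL8 peaks in Langerhans or other dendritic-like cells (2925 and 2743), CXCL2 in smooth muscle or pericyte-like and blood endothelial-like cells (7240 to 10794), and CSF3 in blood endothelial-like cells (590 and 700).

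CXCL8, a strong chemoattractant of neutrophils, was highest in antigen-presenting cells. In Langerhans or other dendritic-like cells it reached 2925 CPM among fresh cells (interval 2843 to 3008) and 2743 CPM after freezing (interval 2670 to 2819). There 72 of 110 fresh cells (65.5%) and 120 of 184 cryopreserved cells (65.2%) held a CXCL8 UMI, at a median depth of 14625 and 9413 UMIs per cell. The positive cells carried a median of 41.5 and 28.5 CXCL8 UMIs, and the highest cells 295 and 190. Macrophage or other CD163/CD209 myeloid-like cells came next with 723 CPM (interval 680 to 768) and 737 CPM (interval 702 to 774), in 40 of 151 and 98 of 276 cells. T or NK-like cells followed with 333 CPM (interval 299 to 369) and 400 CPM (interval 367 to 435). These 3 classes kept the same order in both libraries and their intervals did not overlap within a library. All other classes were at 21.8 CPM or below, and there the order was not resolved, since smooth muscle or pericyte-like, fibroblast-like and lymphatic endothelial-like cells had overlapping intervals in the fresh library. Mast-like cells held no CXCL8 UMI in 68 fresh and 82 cryopreserved cells, which by a limit of 3 counts allows up to 4.41% and 3.66% of cells with a UMI, not of cells expressing the gene, at a median depth of 2751 and 2439 UMIs.

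Within the T or NK-like class nearly all CXCL8 lay in 1 cluster. Cluster 15, led by GNLY, SV2C, TOX, IL23R, a chain of the interleukin-23 receptor, and IL17F, held 353 of the 354 fresh UMIs and 542 of the 543 cryopreserved UMIs of the class. CXCL8 was found in 23 of its 65 fresh cells (35.4%, interval 23.9 to 48.2%) and in 38 of its 98 cryopreserved cells (38.8%, interval 29.1 to 49.2%), at 792 and 1067 CPM. In cluster 14, the larger T or NK-like cluster, 1 of 72 and 1 of 143 cells held a single CXCL8 UMI, at a median depth of 6552 and 4736 UMIs against 5942 and 4694 in cluster 15. The share in cluster 14 was thus 1.39% and 0.699%. Free RNA was not measured. In the CXCL8-positive T or NK-like cells 7 of 10 macrophage markers were at 0 in the fresh library and 9 of 10 in the cryopreserved library, and the list summed to 4 and 1 UMIs (20.5 against 2.30 CPM in the negative fresh cells, and 5.30 against 14.6 CPM in the cryopreserved cells). Of 6 listed dendritic markers CD207, FLT3 and XCR1 were at 0 in both, while BCL2A1, CCR7 and FSCN1 were present, and the list summed to 579 CPM against 498 CPM in the negative fresh cells and 890 against 546 CPM in the cryopreserved cells. The 9 listed T or NK markers summed to 1589 against 2482 CPM in the fresh cells and 2141 against 2752 CPM in the cryopreserved cells. Among them CD3E was at 784 against 1329 CPM and 1108 against 1574 CPM. CD3D was at 159 against 181 CPM in the fresh cells and, the other way, at 233 against 198 CPM in the cryopreserved cells. As 23 of the 24 fresh and 38 of the 39 cryopreserved positive cells lay in cluster 15, all these gaps also compare T or NK-like clusters. The 8 fibroblast markers summed to 2127 against 296 CPM and 1288 against 312 CPM, and the part of these lists in the result was not tested.

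Among Langerhans or other dendritic-like cells CXCL8 was uneven. CCR7 is the receptor with which dendritic cells leave the skin for the lymph node. Cells with a CCR7 UMI had 3538 CPM of CXCL8 in the fresh library (44 of 61 cells positive) and 3959 CPM in the cryopreserved library (71 of 82 positive). Cells without it had 1964 CPM (28 of 49) and 1406 CPM (49 of 102). FSCN1, an actin bundler of mature dendritic cells, split the class in the same direction, with 4085 and 3630 CPM in cells that held its UMI and 2202 and 2153 CPM in the others. For CD207, the langerin of Langerhans cells, the levels were 3533 and 3301 CPM with a UMI and 2522 and 2146 CPM without. For the growth factor receptor FLT3 the gap was smaller in the cryopreserved library, 2866 against 2525 CPM, than in the fresh library, 3173 against 2252 CPM. The share of CXCL8-positive cells went the other way in the cryopreserved library, with 70 of 110 cells with an FLT3 UMI and 50 of 74 without. In the fresh library 50 of 75 and 22 of 35 cells were positive. Cells with a CCR7 UMI were deeper, at a median of 16264 against 12393 UMIs and 11598 against 8393 UMIs, and the part of depth in these gaps was not tested, although CPM are scaled to it.

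**Figure D2:**
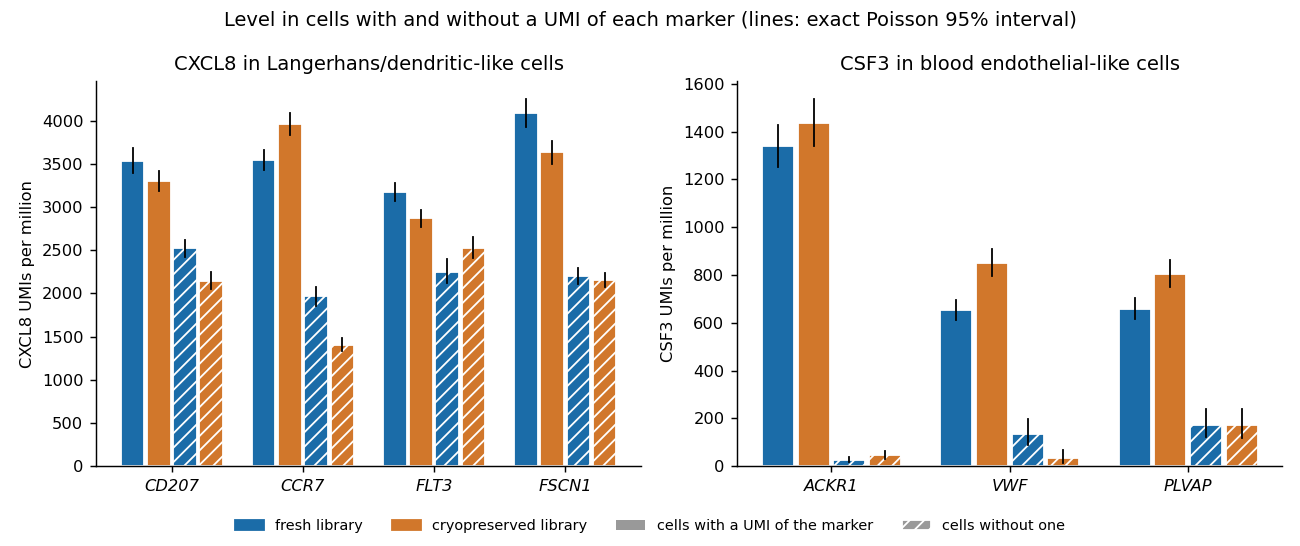
CPM of CXCL8 in Langerhans or other dendritic-like cells (left) and of CSF3 in blood endothelial-like cells (right), in cells with (plain bars) and without (hatched bars) a UMI of each marker, in the fresh (blue) and cryopreserved (orange) library; lines are exact Poisson 95% intervals. CSF3 stands at 1338 and 1435 CPM in cells with an ACKR1 UMI and at 24.6 and 45.7 CPM in cells without.

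CXCL2, a chemokine made early by tissue-resident cells, was spread over stroma, vessels and myeloid cells. Smooth muscle or pericyte-like cells had 8407 CPM in the fresh library (interval 8278 to 8538) and 10345 CPM after freezing (interval 10202 to 10489), with a CXCL2 UMI in 94.3% and 92.2% of cells. Blood endothelial-like cells had 7240 CPM (interval 7108 to 7374) and 10794 CPM (interval 10612 to 10978), in 88.1% and 91.4% of cells. The order of these 2 classes turned between the libraries. Macrophage-like cells had 3244 and 3563 CPM, Langerhans or other dendritic-like cells 2538 and 3161 CPM, and fibroblast-like cells 1833 and 3136 CPM. In the cryopreserved library the latter 2 did not differ beyond their intervals (3082 to 3241 and 3109 to 3163). Lymphatic endothelial-like cells had 814 and 1864 CPM, and T or NK-like cells 237 and 453 CPM. Keratinocyte-like cells were low, at 204 and 213 CPM in the basal class and 46.1 and 73.5 CPM in the differentiated class. Mast-like cells had 3 and 23 UMIs, in 3 of 68 cells (4.41%) and 8 of 82 cells (9.76%). In T or NK-like cluster 14, 6.94% and 6.99% of cells held a CXCL2 UMI, against 62.9% or more in the fibroblast-like, pericyte-like, blood endothelial-like and myeloid classes.

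The fibroblast-like class was divided. Cluster 0, led by MYOC, FCN2 and FGF10, had 4803 CPM of CXCL2 in the fresh library and 6908 CPM in the cryopreserved library, and cluster 7, led by PTX3 and IGFBP6, had 3893 and 5069 CPM. Cluster 1, led by WIF1, NT5E and SPON1, had 117 and 157 CPM. Cluster 6, led by CCL19, lay between at 1276 and 1896 CPM, and cluster 5, led by KCND2 and CTHRC1, at 525 and 1105 CPM. These 5 clusters kept their order in both libraries. Cluster 17, led by COCH, had 31 UMIs (55.2 CPM) and 485 UMIs (765 CPM). In the smooth muscle or pericyte-like class the split was smaller. Cluster 9, led by ADGRF5 and BAALC with RGS5 and KCNJ8 among its leading genes, had 9798 and 12324 CPM, and cluster 12, with MYH11 and ACTA2, had 6679 and 6986 CPM.

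CXCL8 in fibroblast-like cells was far lower, and highest in a different cluster. Cluster 1, the one low in CXCL2, had 46.3 CPM of CXCL8 in the fresh library (208 UMIs in 24 of 309 cells) and 22.9 CPM in the cryopreserved library (79 UMIs in 20 of 340 cells). Cluster 0 had 6.22 and 2.28 CPM. The highest cell gave 39.9% of the fresh UMIs of cluster 1, so its level rests on few cells.

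CSF3 was highest in endothelium. Blood endothelial-like cells had 590 CPM in the fresh library (interval 553 to 629) and 700 CPM after freezing (interval 655 to 748). CSF3 was found in 44 of 201 fresh cells (21.9%, interval 16.4 to 28.3%) and 53 of 269 cryopreserved cells (19.7%, interval 15.1 to 25.0%), and thinning to 2000 UMIs left 17.3% and 16.9%. Smooth muscle or pericyte-like cells followed at 45.2 and 48.9 CPM, of which cluster 9 gave 85 of 87 and 91 of 95 UMIs, and 1 cell held 52 UMIs in the fresh class and 1 held 30 in the frozen class. The other classes were at 1.71 CPM or below in the fresh library and at 26.7 CPM or below in the cryopreserved library, where lymphatic endothelial-like cells had 16 UMIs, 13 of them in 1 cell. Their order was not resolved. No CSF3 UMI was found in 145 T or NK-like, 110 Langerhans or other dendritic-like and 183 differentiated keratinocyte-like cells of the fresh library, which by the limit of 3 counts allows up to 2.07%, 2.73% and 1.64% of cells with a UMI. In the cryopreserved library 2 of 254, 3 of 184 and 4 of 378 cells of these classes held 1 CSF3 UMI each, at median depths of 4813, 9413 and 11014 UMIs.

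Within the blood endothelial-like class CSF3 went with ACKR1, the atypical chemokine receptor of the venules where leukocytes leave the blood, which itself binds CXCL8 and related chemokines. CSF3 was found in 39 of 77 fresh cells with an ACKR1 UMI (50.6%) and in 5 of 124 without (4.03%). In the cryopreserved library it was found in 50 of 106 cells with (47.2%) and 3 of 163 without (1.84%). The levels were 1338 CPM (interval 1252 to 1428) against 24.6 CPM (interval 15.4 to 37.3) and 1435 CPM (interval 1340 to 1535) against 45.7 CPM (interval 30.8 to 65.2). Cells with an ACKR1 UMI had median depths of 6781 and 5133 UMIs, and those without 6409 and 3199 UMIs. For VWF, the von Willebrand factor of endothelium, the CSF3 levels with and without a UMI were 652 and 134 CPM in fresh cells and 850 and 35.1 CPM in frozen cells. For PLVAP, a component of endothelial fenestrae, they were 658 and 174 CPM, and 805 and 171 CPM. The 35.1 CPM rest on 8 UMIs in 2 of 70 cells. Median depths with and without a VWF UMI were 7222.5 and 4103 UMIs in fresh cells and 4527 and 2673 UMIs in frozen cells. For PLVAP the depths were 7332 and 4458.5 UMIs, and 4753 and 2735 UMIs. The part of depth in these gaps was not tested.

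The genes also differed in how far a small number of cells carried them. The top 1% of cells, 28 fresh and 43 cryopreserved, held 91.1% (interval 89.2 to 92.8%) and 87.8% (interval 85.7 to 89.6%) of the CSF3 UMIs. They held 59.5% (interval 58.3 to 60.7%) and 52.2% (interval 51.0 to 53.3%) of the CXCL8 UMIs, and 19.9% (interval 19.6 to 20.2%) and 17.5% (interval 17.3 to 17.7%) of the CXCL2 UMIs. A share of 50% or more was reached by 2 of the 3 genes in each library, against a background of 2.74% of 9942 genes in the fresh library and 3.43% of 10300 genes in the cryopreserved library. Ranked by this share, CSF3 was matched or passed by 17 genes in the fresh library (itself included) and 27 in the cryopreserved library, CXCL8 by 143 and 310, and CXCL2 by 2819 and 4411. Since genes of rare cell classes are concentrated by the size of the class alone, this rank does not speak of cells within a class.

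The highest cells can be given one by one. The 5 highest CSF3 cells had 166, 87, 84, 64 and 54 UMIs in the fresh library and 73, 57, 57, 48 and 46 in the cryopreserved library, and all 10 were blood endothelial-like. The highest gave 15.9% and 6.56% of the CSF3 UMIs of its library, and the 10 highest together gave 66.1% and 43.8%. The 5 highest CXCL8 cells, all Langerhans or other dendritic-like, had 295, 263, 260, 217 and 213 UMIs in the fresh library and 190, 175, 172, 144 and 141 in the cryopreserved library. The highest CXCL2 cells were of mixed kind, a macrophage-like cell with 941 UMIs in the fresh library and a blood endothelial-like cell with 689 UMIs in the cryopreserved library, the latter being 8.44% of all UMIs in that cell. To reach 50% of the UMIs took 7 and 13 cells for CSF3, 21 and 40 cells for CXCL8, and 122 and 229 cells for CXCL2.

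**Figure D3:**
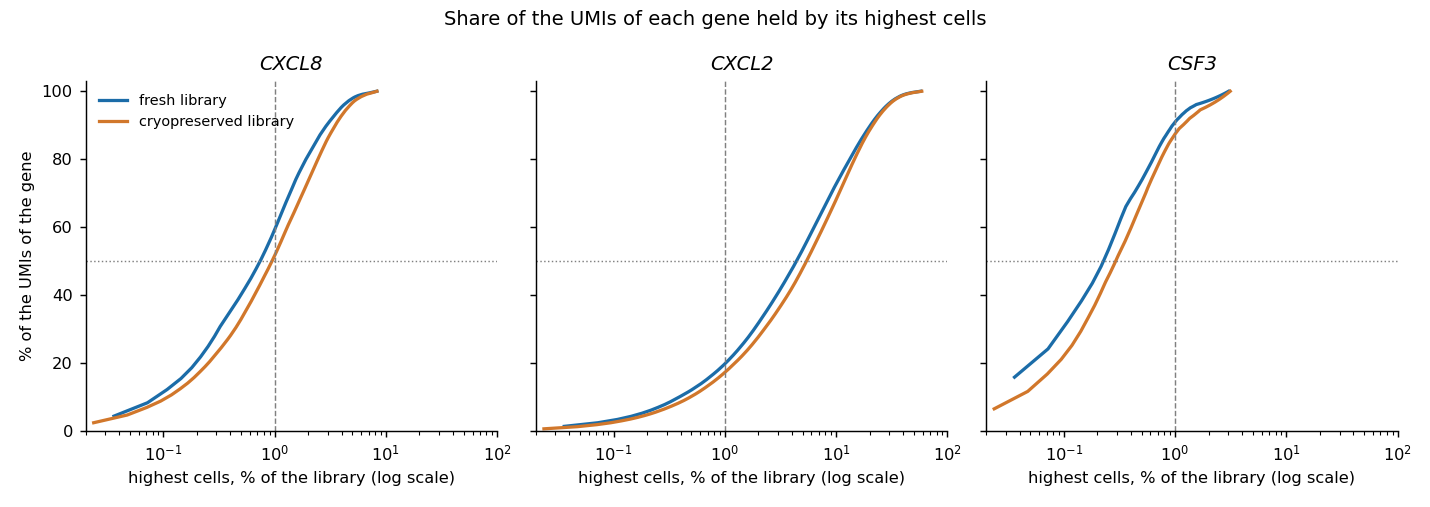
Percent of the UMIs of each gene (vertical axis) held by its highest cells, as a percent of the cells of the library (horizontal log axis), for the fresh (blue) and cryopreserved (orange) library; the dashed line marks 1% of cells and the dotted line 50% of UMIs. The curves cross 50% to the left of 1% for CSF3 and CXCL8 in both libraries, and to its right for CXCL2, for which the top 1% held 19.9% and 17.5%.

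Most CXCL8-positive and most CSF3-positive cells also held CXCL2, which 57.5% of fresh and 58.8% of cryopreserved cells held. Of the CXCL8-positive cells 87.4% (201 of 230) and 91.2% (320 of 351) held a CXCL2 UMI, which was 12.6% and 12.9% of the CXCL2-positive cells. Of the CSF3-positive cells 88.1% (74 of 84) and 84.8% (112 of 132) held a CXCL2 UMI, which was 4.64% and 4.51% of the CXCL2-positive cells. CXCL8 and CSF3 met in 8 fresh and 11 cryopreserved cells, and all of these also held CXCL2. They were 3.48% and 3.13% of the CXCL8-positive cells, where 3.03% and 3.13% of all cells held CSF3. They were 9.52% and 8.33% of the CSF3-positive cells, where 8.29% and 8.31% of all cells held CXCL8. These shares thus lay near those over all cells. In blood endothelial-like cells 3 of 6 and 4 of 6 CXCL8-positive cells held CSF3, where 21.9% and 19.7% of the class did. Thinned to 2000 UMIs per cell, 1 fresh and 2 cryopreserved cells held CXCL8 together with CSF3. After thinning CXCL2 was held by 80.0% and 86.1% of CXCL8-positive cells and by 84.8% and 90.8% of CSF3-positive cells. In Langerhans or other dendritic-like cells 94.4% and 97.5% of CXCL8-positive cells held CXCL2, where 74.5% and 87.0% of all cells of the class did. In blood endothelial-like cells every CSF3-positive cell held CXCL2 (44 of 44 and 53 of 53), where 88.1% and 91.4% of all cells of the class did. Over the 23 clusters the patterns, as Pearson's r of log2(CPM + 10), gave 0.41 and 0.35 for CXCL8 with CXCL2, 0.45 and 0.53 for CXCL2 with CSF3, and -0.10 and -0.10 for CXCL8 with CSF3, a description over clusters that share a library.

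Over the same clusters the 5 genes most like each member were named. Among 11691 genes with at least 200 UMIs, ranked by the lower r of the libraries, the nearest to CXCL8 were CCL5 (0.90), a chemokine for T cells and monocytes, then PLBD1, PLD4 and KYNU (0.85, 0.85 and 0.84) and CD86 (0.84), the costimulatory ligand of antigen-presenting cells. CCL5 had 2392 and 2826 CPM in the leading class of CXCL8 and 100 and 146 CPM in the rest. The nearest to CXCL2 were RIN3 and SLC8A1 (0.85 each), VCAM1 (0.83), the vascular adhesion molecule, EPS8 (0.82) and RHOB (0.81). The nearest to CSF3 were CA8, CLIC5, an unnamed gene (ENSSSCG00000050322), SOX17, a transcription factor of endothelium, and ADGRL4, an endothelial adhesion receptor, all at 0.88. CSF3 had 590 and 700 CPM in blood endothelial-like cluster 4 and no more than 79.7 and 74.4 CPM in any other cluster. Its r values thus rest mainly on cluster 4, and a gene confined to that cluster ranks high.

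Listed genes of the same pathway were compared between cells with and without a UMI of each gene, within its leading class. A gene counted as higher at 2-fold on CPM + 10, and only genes with at least 50 UMIs in the class entered. Cells with a UMI were deeper, with medians of 15736 against 13170 UMIs for CXCL8, 13414 against 10935 for CXCL2 and 8174 against 6252 for CSF3 in the fresh library, and 10492 against 7478, 10570 against 8200 and 5209 against 3651 in the cryopreserved library. For CXCL8 in Langerhans or other dendritic-like cells 9 of 34 listed genes were higher in the fresh library (background 6.92% of 4005 genes) and 4 of 35 in the cryopreserved library (background 4.57% of 4333 genes). For CXCL2 in fibroblast-like cells 13 of 43 and 14 of 43 were higher (backgrounds 1.63% of 10467 and 1.56% of 10476 genes). For CSF3 in blood endothelial-like cells 5 of 38 and 7 of 36 were higher (backgrounds 3.61% of 4180 and 4.11% of 3720 genes). Lower at 2-fold were 1 and 4 listed genes beside CXCL8 (backgrounds 5.74% and 7.27%), 0 and 0 beside CXCL2 (backgrounds 0.191% and 0.535%), and 6 and 7 beside CSF3 (backgrounds 10.3% and 14%), where 6 of 38 and 7 of 36 lie near the background. The genes named next are those that passed in both libraries and were chosen after their values were seen.

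PTGS2, the inducible cyclooxygenase that makes prostaglandins, passed beside each of the 3 genes. Beside CXCL8 it had 177 against 7.40 CPM in the fresh library and 249 against 32.3 CPM in the cryopreserved library. IL1A, an alarmin that itself induces neutrophil chemokines, had 1341 against 220 CPM and 626 against 167 CPM, and IL1R2, a decoy receptor for interleukin-1, had 1278 against 448 CPM and 1011 against 362 CPM. TNF went the other way, with 33.5 against 85.1 CPM and 45.5 against 222 CPM. Of the CXCL8-positive cells 44 of 72 fresh and 71 of 120 cryopreserved ones held a CCR7 UMI. In the whole class 61 of 110 and 82 of 184 cells did. These ratios thus also compare cells with and without CCR7, and the part of CXCL8 itself was not tested.

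Beside CXCL2 in fibroblast-like cells 11 of 42 listed genes measured in both libraries were higher in both, and 0 were lower by 2-fold in both. Beside CXCL8 in its leading class 3 of 32 were higher in both and 1 was lower. Beside CSF3 in its leading class 3 of 36 were higher in both and 6 were lower. The share of all genes that passed in both libraries is not given here. AMCF-II, a pig ELR-positive chemokine for neutrophils, had 229 UMIs in cells with CXCL2 and 3 in cells without in the fresh library, a ratio of 39.0 (interval 13.2 to 191), and 527 and 3 in the cryopreserved library, a ratio of 71.4 (interval 24.3 to 347). IL6, which drives the acute phase, had 453 against 50.6 CPM and 534 against 35.8 CPM. LIF, of the same cytokine family, had 41.3 against 5.81 CPM and 58.1 against 7.80 CPM. CCL2, the monocyte chemokine, had 3561 against 716 CPM and 6227 against 1413 CPM. The receptors IL1R1 and OSMR, which sense interleukin-1 and oncostatin M, were higher at 522 against 160 CPM and 233 against 67.5 CPM in the fresh library. Because CXCL2 differs between fibroblast-like clusters, these ratios also compare clusters.

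Beside CSF3 in blood endothelial-like cells ACKR1 had 1309 against 168 CPM in the fresh library and 1243 against 188 CPM in the cryopreserved library. IL6 had 5643 against 1093 CPM and 6072 against 979 CPM, and PTGS2 1329 against 203 CPM and 1790 against 150 CPM. Of 7 measured immediate early genes 5 were lower by 2-fold in both libraries, where 10.3% and 14% of all genes were lower in each library. FOSL1 (48.9 against 31.0 CPM, and 49.99 against 42.4 CPM) and IER3 (203 against 267 CPM, and 353 against 318 CPM) were not. With ZFP36 these 5 are the 6 listed genes lower in both libraries, and over all lists the 6 of 38 and 7 of 36 lay near the background. FOS had 154 against 694 CPM and 130 against 695 CPM, and JUN 193 against 627 CPM and 193 against 666 CPM. FOSB, EGR1 and ATF3 were lower as well, with ratios of 0.21, 0.12 and 0.31 in the fresh library and 0.27, 0.42 and 0.32 in the cryopreserved library. ZFP36, the protein that binds AU-rich elements and speeds mRNA decay, was lower too, at 254 against 1253 CPM and 477 against 1591 CPM. Of the 9 measured decay regulators it was the only 1 lower by 2-fold in each library. The median over these 9 genes was -0.09 and -0.14 on the log2 scale. The median over the 7 measured immediate early genes was -1.65 and -1.58 on the log2 scale, against -0.12 and -0.19 over all genes. Of the CSF3-positive cells 39 of 44 fresh and 50 of 53 cryopreserved ones held an ACKR1 UMI. These ratios thus also compare cells with and without ACKR1, and the part of CSF3 itself was not tested.

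**Figure D4:**
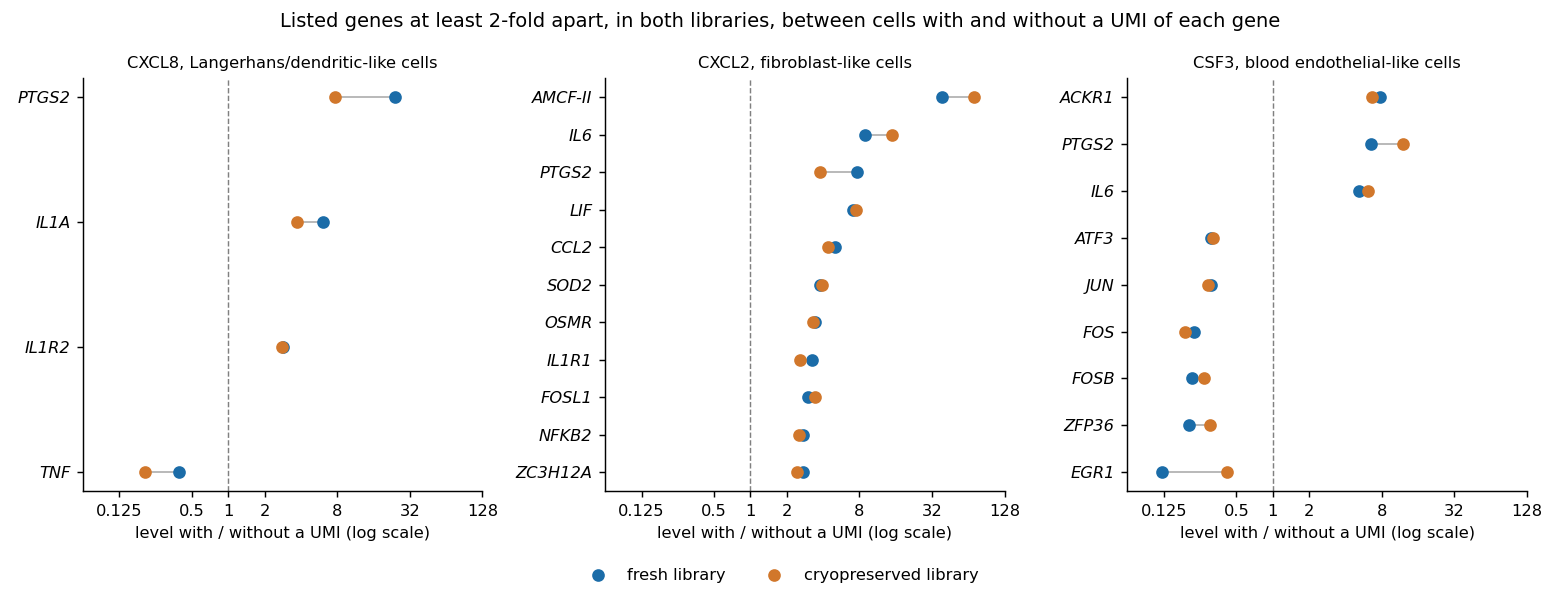
Ratio of the CPM of listed genes in cells with over cells without a UMI of CXCL8, CXCL2 or CSF3 (log axis), within the leading class of each, in the fresh (blue) and cryopreserved (orange) library; shown are the genes at least 2-fold apart on CPM + 10 in both libraries. PTGS2 is on the right in each panel, and FOS, JUN and ZFP36 are on the left beside CSF3.

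Between the libraries none of the 3 genes differed by 2-fold. With edgeR's TMM scaling over whole libraries, CXCL8 had 204 CPM fresh (interval 199.6 to 209) and 213 CPM frozen (interval 208 to 218), and the ratio was 1.04 (1.01 to 1.08). CXCL2 had 2061 CPM (interval 2046 to 2077) and 2832 CPM (interval 2814 to 2849), and the ratio was 1.37 (1.36 to 1.39). CSF3 had 31.98 CPM (interval 30.1 to 34.0) and 30.7 CPM (interval 28.96 to 32.6), and the ratio was 0.961 (0.883 to 1.05). Of 11692 genes with 200 or more UMIs over the libraries, 125 (1.07%) had a ratio of at least 2-fold either way, and the median log2 ratio was 0.03.

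CXCL2 had a higher level after freezing in most classes. Its CPM was higher in the cryopreserved library in 9 of the 9 classes with at least 50 UMIs, and in 8 the interval of the ratio lay above 1. The ratio ran from 1.05 in basal keratinocyte-like cells (interval 0.962 to 1.14) to 2.29 in lymphatic endothelial-like cells (interval 2.08 to 2.52). Both ends rest on few cells. In the fresh basal class 1 cell held 279 of 952 UMIs, and in the cryopreserved lymphatic class 1 cell held 296 of 1116. The share of lymphatic endothelial-like cells with a CXCL2 UMI was 44.9% fresh and 37.8% cryopreserved. It was 1.71 in fibroblast-like cells, 1.49 in blood endothelial-like cells and 1.23 in smooth muscle or pericyte-like cells. Of 19 clusters 18 had a higher CXCL2 level in the cryopreserved library, and basal keratinocyte-like cluster 2 a lower one (ratio 0.731). In that cluster 1 fresh cell held 279 of 885 UMIs.

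The CXCL8 ratio went both ways over the 6 classes with at least 50 UMIs. It was 0.938 in Langerhans or other dendritic-like cells (interval 0.902 to 0.975), 1.02 in macrophage-like cells (interval 0.944 to 1.10) and 1.2 in T or NK-like cells (interval 1.05 to 1.38). In fibroblast-like cells it was 0.416 (interval 0.335 to 0.514), from 293 and 127 UMIs, of which 83 fresh UMIs lay in 1 cell. With total UMIs in place of TMM the ratio over the library was 1.01 (interval 0.981 to 1.05), and on that scaling the class shares of the fresh library in both gave 0.944.

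CSF3 rested on its highest cells, and over the library no direction was resolved. What the mix of classes contributed was not tested. In all 3 classes with at least 50 UMIs the CSF3 level was higher after freezing, and in 2 the interval of the ratio lay above 1. Of 3 clusters 2 had a higher CSF3 level after freezing, and smooth muscle or pericyte-like cluster 9 a lower one (ratio 0.933). The share of blood endothelial-like cells with a CSF3 UMI was 21.9% fresh and 19.7% cryopreserved. Over the library the ratio was 0.961, with an interval (0.883 to 1.05) that included 1. On total UMIs the library ratio was 0.936 (interval 0.860 to 1.02), and with the class shares of the fresh library in both it was 1.27. In blood endothelial-like cells its ratio was 1.19 (interval 1.08 to 1.30), and in smooth muscle or pericyte-like cells 1.08 (interval 0.8 to 1.46). In fibroblast-like cells it was 3.97 (interval 2.49 to 6.55), from 23 and 95 UMIs, 28 of the latter in 1 cell. Without the 10 highest cells of each library the ratio over the library went from 0.961 to 1.59 (interval 1.39 to 1.81). Those cells were picked by CSF3 itself and held 66.1% of its fresh and 43.8% of its cryopreserved UMIs. Their removal thus raised the ratio, and the value shows only how far it rests on few cells.

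**Figure D5:**
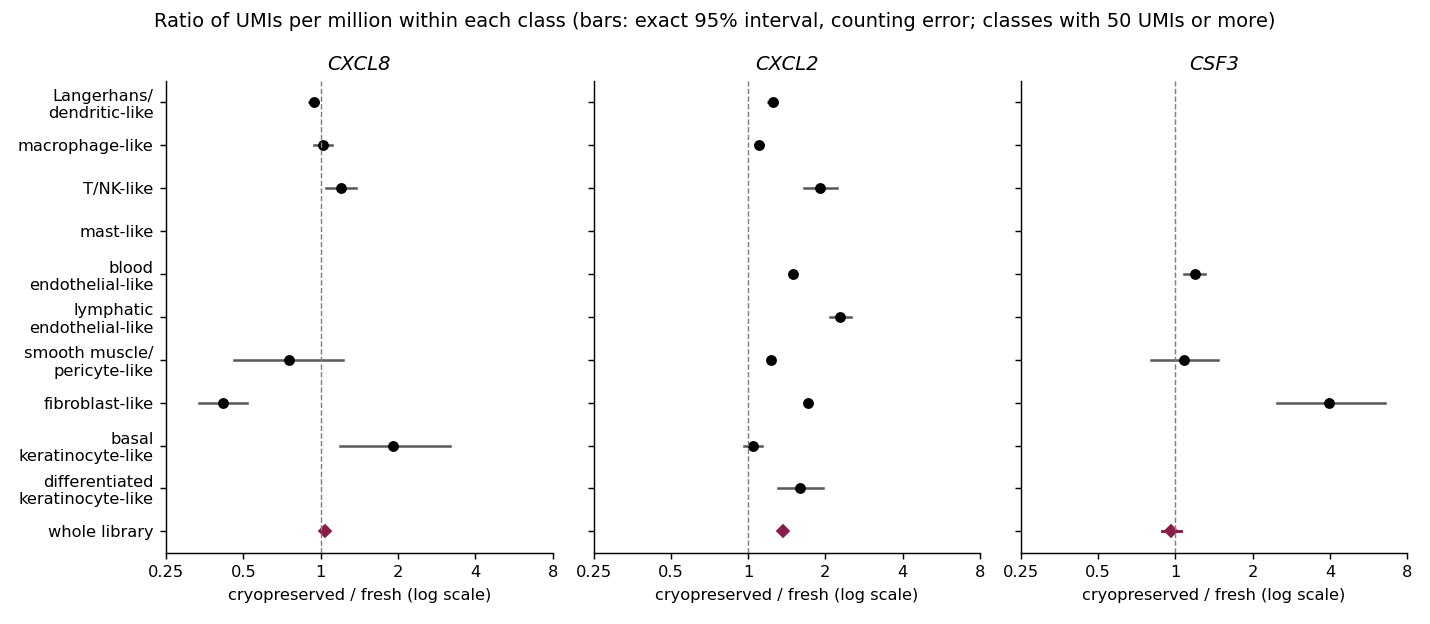
Ratio of CPM, cryopreserved over fresh (log axis), of each gene within classes that held at least 50 of its UMIs (black) and over the whole library with TMM scaling (dark red diamonds); bars are exact 95% intervals for counting error. The CXCL2 points all lie at 1.05 or above, and the CXCL8 points lie on both sides of 1.

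The other genes of the pathway were compared between the libraries in the same way. Of 66 listed genes 53 were found by name and 49 had at least 50 UMIs, with a median log2 ratio of 0.16. Only JUNB, an AP-1 subunit, passed 2-fold, from 10.9 to 23.9 CPM, and 0 genes were lower by 2-fold. Over all 14443 genes with at least 50 UMIs, 409 (2.83%) passed 2-fold either way, so 1 of 49 lies near the background. Of the receptors CXCR1 and CXCR2 were not found by name, CSF3R had 15 and 32 UMIs, and ACKR1 had 36.8 and 27.4 CPM (log2 ratio -0.43), with its highest class, blood endothelial-like cells, at 465 and 443 CPM. Among the other chemokines and growth factors IL6 had 386 and 367 CPM, CSF1 105 and 127 CPM, and LIF 22.0 and 28.4 CPM, and AMCF-II 8.13 and 15.1 CPM (log2 ratio 0.90). Among the upstream cytokines IL1A had 72.7 and 54.4 CPM (log2 ratio -0.42), and TNF had 14.5 and 18.6 CPM. IL17F had its highest level in T or NK-like cells (163 and 167 CPM). The receptors IL1R1 and IL6ST had 269 and 221 CPM and 355 and 301 CPM. Among NF-kB targets CCL2 had 1991 and 3512 CPM (log2 ratio 0.82), while NFKBIA, the inhibitor that NF-kB induces, had 1568 and 1545 CPM and NFKB2 had 64.5 and 90.2 CPM. Of the decay regulators ZFP36 had 1663 and 2078 CPM, ZFP36L2 1619 and 1809 CPM, KHSRP 55.3 and 76.5 CPM, and ZC3H12A, the nuclease regnase-1, 80.2 and 127 CPM (log2 ratio 0.66). Of the immediate early genes FOS had 1816 and 2139 CPM, JUN 1014 and 877 CPM, and FOSL1 118 and 159 CPM.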

How the data were processed

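Cells of pig skin, 1 fresh and 1 cryopreserved library, were measured with the 10x Genomics 3′ kit. The deposited matrices hold raw UMI counts per gene and barcode, which per the labels the authors made with Cell Ranger 4.0.0 and STAR 2.5.1b on Sscrofa11.1. Other counting settings are not given in the sources used here. Before library preparation dead cells were removed by FACS, and aggregates were gated out by scatter.

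Barcodes were kept with at most 4500 genes, 30000 UMIs and 10% mitochondrial UMIs (13 genes), which kept 32274985 fresh and 36687009 cryopreserved UMIs. Cells were integrated with Seurat 5.3.0 in R 4.3.3 (2000 features without the 3 genes, 30 dimensions, resolution 0.8). A cluster took a class name with at least 3 markers raised 2-fold, and that scoring rule was set after the clusters had been seen. Scrublet (scanpy 1.11.5) called 3 and 35 cells as doublets (0.108% and 0.829%), which were not removed. Levels between libraries used TMM of edgeR 4.0.16 on the counts, with total UMIs and DESeq2 1.42.0 size factors as alternatives. Within classes CPM were used without TMM. Intervals are exact Poisson (CPM), binomial (shares) and conditional binomial (ratios) intervals from scipy 1.17.1. Tables were handled with numpy 2.4.6 and pandas 2.3.3 under Python 3.11.15.

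The scripts were tested on simulated data. The members and lists were chosen with earlier results of these data known. From each pathway list the 2 genes with the most UMIs and the 2 with the largest absolute log2 ratio (at least 50 UMIs) were named, and for each member the 5 genes with the highest r of log2(CPM + 10) over clusters, by the lower value of the libraries, among genes with at least 200 UMIs. Single-gene comparisons within classes and cluster genes were chosen after their values were seen. RefSeq annotation of Sscrofa11.1 gave positions, by symbol, for 3 of the 3 genes. The sequence before CSF3 is not reported here.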

Additional observations from a re-analysis of the deposited data

Results flagged for a closer look

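Barcodes outside the maxima for genes, UMIs or mitochondrial share were left out of the comparisons, and are listed because no comparison used their UMIs. That they hold some UMIs of these genes says nothing by itself. The 1604 fresh barcodes left out held 853 CXCL8 UMIs (40.6 CPM), 15931 CXCL2 UMIs (759 CPM) and 88 CSF3 UMIs (4.19 CPM), or 11.3%, 19.1% and 7.76% of all fresh UMIs of these genes. The 637 cryopreserved barcodes left out held 540 CXCL8 UMIs (97.6 CPM), 6570 CXCL2 UMIs (1188 CPM) and 23 CSF3 UMIs (4.16 CPM), or 6.54%, 6.02% and 2.02%.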

How the results depend on the processing

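No paired analysis was possible because each group holds 1 library. The ratio of CPM, cryopreserved over fresh, kept its direction for CXCL2 under all alternatives run. It was 1.34 with total UMIs, 1.66 without maxima, 1.43 without the mitochondrial maximum, 1.43 without the 10 highest cells of each library, 1.36 without the 6% of cells with the highest Scrublet scores, and 1.48 with the class shares of the fresh library in both. That last alternative was chosen after seeing the data and uses total UMIs, so it compares with 1.34, for CXCL8 with 1.01 and for CSF3 with 0.936. For CXCL8 it was 1.39 without maxima, 1.11 without the mitochondrial maximum and 1.26 without the 10 highest cells, and it turned to 0.944 with the fresh class shares. For CSF3, 0.961 as reported, it lay above 1 at 1.27 without maxima, 1.01 without the mitochondrial maximum, 1.59 without the 10 highest cells and 1.27 with the fresh class shares. It stayed below 1 with total UMIs, with DESeq2 size factors (0.964) and without the highest Scrublet scores (0.951). The 10 highest cells were picked by each gene itself and held a larger share of its UMIs in the fresh library, so leaving them out raises each ratio by itself. With no minimum of UMIs, 4676 of 22857 genes had a ratio of at least 2-fold, against 125 of 11692.

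The share of UMIs in the top 1% of cells was, for CXCL8, 70.1% (fresh) and 54.2% (cryopreserved) without maxima and 52.6% and 50.1% after thinning. For CXCL2 it was 22.7% and 18.3% without maxima and 18.4% and 17.1% after thinning. For CSF3 it was 93.7% (fresh) without maxima and 92.4% (cryopreserved) after thinning. The share in the leading class was, for CXCL2, 46.6% and 51.3% without maxima and 41.9% and 49.8% without the highest Scrublet scores, and for CSF3 86.4% (fresh) without maxima. The cause was not tested. Depth limits low classes, where a few UMIs or 1 cell set a level, and with 1 library per group no difference can be set against the spread between animals.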
